A study of Mus musculus with 6 samples.

Results

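The 7 genes described here are Ms4a4a, Ms4a4c, Ms4a4d, Ms4a6b, Ms4a6c, Ms4a6d and Ms4a7, members of the MS4A family grouped here as genes of macrophages. They were chosen by name, and all 7 were found by symbol among the 43432 genes of the deposited count files. The series concerns mouse muscle whose fibro-adipogenic progenitors (FAPs, mesenchymal cells that lie between the fibres) lack Igf1. Total RNA was sequenced in 6 libraries whose source is given as skeletal muscle, 3 titled control and 3 titled FID. D3 appears in each title. What FID and D3 stand for is not given in the sources used here, nor is a genotype, strain, Cre driver or sex for any library. Values are listed below in the order of replicates 1, 2 and 3. Per the labels, both groups had tamoxifen (100 ug/g, on 5 days) when the mice were 12 to 13 weeks old, and a washout of 1 week or more followed. The muscles are described as embedded and frozen, and the protocols also describe RNA from primary FAPs, so which material a library holds cannot be settled from the labels. For every library the labels give an RNA input of 1000 ng and an RNA integrity number above 5.6, with no more exact value. Whether each library is a different mouse is not stated, and p-values therefore reflect library-to-library spread, part of which may be technical.

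MS4A proteins are small membrane proteins that cross the cell membrane several times and associate with other surface receptors, whose signalling they modify. Many are made by myeloid cells, and the mouse has more copies of the Ms4a4 and Ms4a6 genes than humans do. Injured muscle fills with monocytes that become macrophages, which clear dead fibres and exchange signals with FAPs, and MS4A genes are widely used to mark monocyte and macrophage states.

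Depth ranged from 5201853 gene counts in control 1 to 10093757 in control 3. CPM (counts scaled to a common library size) were normalised with TMM factors (trimmed mean of M values). Igf1, the gene the model deletes, measured 134, 60.4 and 106 CPM across the control libraries, against 109, 107 and 81.6 CPM across the FID libraries (log2 fold change -0.01, SE 0.28, edgeR adjusted p 0.990), so its level did not separate the groups. Control and FID below mean the libraries that carry those labels. Markers of mature myofibres were scarce, with Ckm, the muscle creatine kinase, at no more than 1.19 CPM and Acta1, skeletal muscle actin, at no more than 30.9 CPM in any library. FID 1 stood apart from FID 2 and FID 3 in genes of the interferon response, so values are given library by library.

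The 7 genes lie within 284 kb of mouse chromosome 19 (mm10, from 11321039 to 11604849), where the family sits as a tandem cluster. In order along the chromosome they are Ms4a7 (ENSMUSG00000024672, 11321039 to 11336146, minus strand), Ms4a4a (ENSMUSG00000101389, 11375523 to 11392790, plus strand), Ms4a4c (ENSMUSG00000024675, 11404770 to 11427246, plus strand), Ms4a6c (ENSMUSG00000079419, 11469366 to 11482192, plus strand), Ms4a6b (ENSMUSG00000024677, 11516512 to 11531256, plus strand), Ms4a4d (ENSMUSG00000024678, 11536801 to 11558467, plus strand) and Ms4a6d (ENSMUSG00000024679, 11586604 to 11604849, minus strand). All are annotated as protein coding. In their coding sequences, Ms4a4c and Ms4a4d were 86.1% identical over the aligned bases, Ms4a6b and Ms4a6c 85.4%, Ms4a6b and Ms4a6d 81.2% and Ms4a6c and Ms4a6d 79.0%. Ms4a4a was closest to Ms4a4c, at 68.3%, and Ms4a7 to Ms4a6b, at 64.0%. Such copies matter for counting, because reads that match more than 1 place are listed apart from the gene counts. Of the 50-base words of Ms4a6c transcripts, 51.4% also occurred in transcripts of other genes on either strand, Ms4a6b and the overlapping antisense BE692007 among them, so the counts of Ms4a6c are uncertain. The share was 8.19% for Ms4a4c, with Ms4a4b and Ms4a4d, 3.57% for Ms4a6b, 2.54% for Ms4a6d and under 1% for Ms4a4d, Ms4a7 and Ms4a4a. Ms4a4c and Ms4a6b also overlap a pseudogene and an antisense gene on the other strand, and the strand setting of the counting is not given in the sources used here.

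The promoters of Ms4a6c and Ms4a6b are shown because these close copies moved together over the 6 libraries, and that of Ms4a4c because it had the largest difference between the groups. The choice was made after the values were seen. A planned rule would have printed only promoters that hold the core motif of interferon-stimulated response elements spelled out below. No matched promoter holds that exact motif. Each sequence runs 5′ to 3′ on the gene's strand, from 250 bases before to 50 bases after a RefSeq start site (GRCm38.p6), at chr19:11469118-11469417, chr19:11518309-11518608 and chr19:11407411-11407710, all on the plus strand. In Ms4a6c and Ms4a6b the capitals mark the runs of 15 or more bases that both promoters hold in the same order. In Ms4a4c they mark GAGGAA, a form of sites for PU.1, a transcription factor of myeloid cells.
Ms4a6c: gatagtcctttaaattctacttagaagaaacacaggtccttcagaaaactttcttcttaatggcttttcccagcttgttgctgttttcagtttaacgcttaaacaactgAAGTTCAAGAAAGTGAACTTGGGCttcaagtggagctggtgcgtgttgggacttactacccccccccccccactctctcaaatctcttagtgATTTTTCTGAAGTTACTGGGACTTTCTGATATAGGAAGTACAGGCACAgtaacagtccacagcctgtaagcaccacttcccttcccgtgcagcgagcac
Ms4a6b: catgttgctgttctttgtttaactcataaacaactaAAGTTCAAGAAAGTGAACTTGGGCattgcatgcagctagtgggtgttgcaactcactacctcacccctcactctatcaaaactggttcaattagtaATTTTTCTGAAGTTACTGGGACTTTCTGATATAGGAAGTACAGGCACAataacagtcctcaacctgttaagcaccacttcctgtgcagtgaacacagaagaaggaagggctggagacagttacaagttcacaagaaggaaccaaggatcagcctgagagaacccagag
Ms4a4c: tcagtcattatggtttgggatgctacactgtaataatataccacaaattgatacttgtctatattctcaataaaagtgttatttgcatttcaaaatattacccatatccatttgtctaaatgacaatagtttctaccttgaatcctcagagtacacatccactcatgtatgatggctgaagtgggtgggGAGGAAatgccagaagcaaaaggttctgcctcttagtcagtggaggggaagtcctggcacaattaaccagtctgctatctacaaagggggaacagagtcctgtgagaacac
The Ms4a6c and Ms4a6b promoters share runs of 24 and 48 bases, and 0 other promoters of the RefSeq table hold either run. Among the other pairs of promoters of the 7 genes the longest shared run was 13 bases, between Ms4a6b and Ms4a4d. A promoter was matched for 6 of the 7 genes, all but Ms4a6d, with 7 windows in all because Ms4a7 has 2. These windows were searched on both strands for 4 motifs. The core of interferon-stimulated response elements, GAAA, any 2 bases and GAAA again, was in 0 of the 7 windows and in 3.44% of all 32851 promoters of this length. TTCNNNGAA, the form of gamma-activated sites, was also in 0 of them and in 8.30% of all. GAGGAA was in the Ms4a4c window, 61 bases before the start site, and in 1 Ms4a7 window, against 28.3% of all promoters. TTGCNNAA, a form of C/EBP sites, was in the Ms4a4d window and in 10.8% of all. Only exact matches were counted, so near matches are missed, and each is a match of letters and not a measured site.

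Ms4a4c showed the largest difference. It is known as an interferon-induced gene of mouse monocytes and macrophages. It measured 42.9, 20.4 and 38.6 CPM across the control libraries, against 86.0, 559 and 375 CPM across the FID libraries. The groups did not overlap, but FID 1 was much nearer to the controls than to the other FID libraries. The mean was 34.0 ± 12.0 CPM for controls against 340 ± 238 CPM for FID (SD, 3 libraries a group), a 10.1-fold higher level in FID (log2 fold change 3.33, SE 0.66). With p-values adjusted over all genes by Benjamini-Hochberg, the quasi-likelihood test of edgeR did not call it (adjusted p 0.136). DESeq2, run as an alternative, gave an adjusted p of 0.00146. In these bulk libraries, more cells of a type and more RNA per cell cannot be told apart, for this gene or any other named here.

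The 3 Ms4a6 genes followed each other from library to library, with Pearson's r of 0.991 to 0.999 over the 6 libraries, given as a description. Ms4a6d, whose product is known to work with the macrophage receptor VSIG4 in restraining Nlrp3, measured 101, 77.7 and 64.6 CPM across the control libraries, against 201, 406 and 344 CPM across the FID libraries. The lowest FID library, FID 1, was well above the highest control library. The means were 81.1 ± 18.5 and 317 ± 105 CPM, 3.92-fold higher in FID (log2 fold change 1.97, SE 0.29, edgeR adjusted p 0.122).

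Ms4a6b, known from T cells as well as myeloid cells, measured 66.7, 52.5 and 43.6 CPM across the control libraries, against 109, 217 and 182 CPM across the FID libraries. Its group means were 54.3 ± 11.6 and 169 ± 54.9 CPM, a difference of 1.65 on the log2 scale (SE 0.28, edgeR adjusted p 0.122). Ms4a6c, a gene typical of monocytes, measured 44.5, 39.7 and 37.3 CPM across the control libraries, the narrowest control range of the 7 genes, against 78.4, 170 and 145 CPM across the FID libraries. Its group means were 40.5 ± 3.66 and 131 ± 47.2 CPM, a difference of 1.70 on the log2 scale (SE 0.28, edgeR adjusted p 0.122). In all 3 Ms4a6 genes every FID library lay above every control library, FID 2 was the highest and FID 1 the lowest of the FID libraries. DESeq2 adjusted p were 1.03e-07 for Ms4a6d, 1.50e-05 for Ms4a6b and 7.68e-06 for Ms4a6c.

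Ms4a7 and Ms4a4a, which mark mature tissue macrophages, had smaller differences and less spread among the FID libraries. Ms4a7, a marker of macrophages at tissue borders, measured 125, 76.7 and 54.5 CPM across the control libraries, against 179, 263 and 224 CPM across the FID libraries. The groups did not overlap, and the means were 85.3 ± 35.9 and 222 ± 42.0 CPM (log2 fold change 1.39, SE 0.31, edgeR adjusted p 0.136, DESeq2 adjusted p 0.00131). Ms4a4a, whose product associates with the beta-glucan receptor dectin-1, measured 74.2, 57.5 and 35.0 CPM across the control libraries, against 118, 121 and 93.3 CPM across the FID libraries. Unlike the Ms4a6 genes and Ms4a4c, it was nearly as high in FID 1 as in FID 2. Its means were 55.6 ± 19.6 and 111 ± 15.2 CPM, a 2.00-fold higher level in FID (log2 fold change 1.00, SE 0.26, edgeR adjusted p 0.143, DESeq2 adjusted p 0.0184).

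Ms4a4d, the close copy of Ms4a4c, had another pattern. It measured 46.5, 88.1 and 141 CPM across the control libraries, against 60.1, 198 and 170 CPM across the FID libraries. The groups overlapped, since FID 1 lay below control 2 and control 3. The means were 91.7 ± 47.1 and 142 ± 72.8 CPM (log2 fold change 0.63, SE 0.50, edgeR adjusted p 0.526, DESeq2 adjusted p 0.523). Control 1 and FID 1 were its lowest libraries of each group, whereas control 1 was the highest control library for each of the other 6 genes. Whether the Ms4a4d counts came from macrophages or from other cells was not tested.

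**Figure D1:**
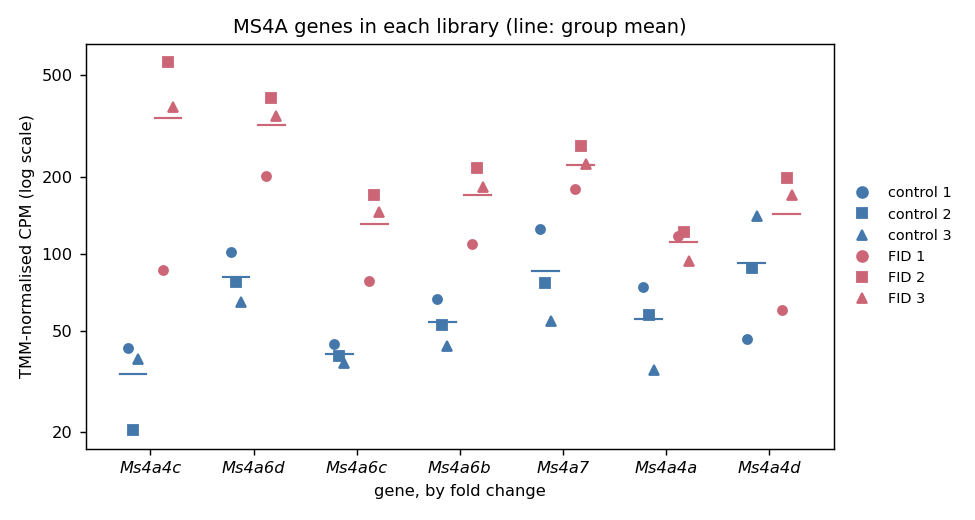
TMM-normalised CPM of the 7 MS4A genes on a log axis, with a point for each control (blue) and FID (red) library and a line at the group mean (n = 3 each). The groups overlap for Ms4a4d, and for Ms4a4c FID 1 sits at 86.0 CPM against 559 and 375 CPM in FID 2 and FID 3.

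Across the whole table, 0 of 12881 tested genes (0%) passed edgeR's adjusted threshold of 0.05, and so 0 of the 7 MS4A genes did. All 7 passed the filter on low counts and all had a log2 fold change above 0, as did 47.8% of tested genes. Their median log2 fold change was 1.65, against -0.02 over all tested genes. An unadjusted p under 0.05 in edgeR was reached by 6 of the 7, all higher in FID, against 9.81% of tested genes. In the same 6, all but Ms4a4d, the FID libraries lay above the control libraries without overlap, against 13.0% of tested genes. DESeq2 called these 6 and limma-voom 0 of the 7, and DESeq2 called 3.60% of the genes it tested as higher in FID. With no filter on low counts, edgeR called the same 6, against 1.02% of genes called higher. Without FID 1, edgeR called 4, namely Ms4a4c and the 3 Ms4a6 genes, against 2.15% of genes called higher, and leaving out any other single library it called 0 of the 7. The calls therefore rest on the setting, while the direction was the same under every alternative tried.

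Levels of different genes can be compared only per length of transcript, here as CPM per kb of merged exons. In control, the order was Ms4a4a (66.5 ± 23.5), Ms4a4d (60.6 ± 31.1), Ms4a6d (46.8 ± 10.6), Ms4a6c (19.8 ± 1.79), Ms4a4c (19.4 ± 6.83), Ms4a7 (19.2 ± 8.07) and Ms4a6b (12.1 ± 2.59 CPM per kb). Libraries of neighbours in that order overlapped, except at the step from Ms4a6d to Ms4a6c. The shared sequence of Ms4a6c can lower its counts, so its own place in the order is uncertain. Control libraries of Ms4a6d, at 37.3 CPM per kb or more, also lay above those of the genes below Ms4a6c. These reached 24.5 for Ms4a4c, 28.0 for Ms4a7 and 14.9 CPM per kb for Ms4a6b. In FID, the order was Ms4a4c (194 ± 136), Ms4a6d (183 ± 60.6), Ms4a4a (132 ± 18.1), Ms4a4d (94.2 ± 48.1), Ms4a6c (63.9 ± 23.0), Ms4a7 (49.9 ± 9.43) and Ms4a6b (37.7 ± 12.2 CPM per kb), and every neighbouring pair overlapped. The annotated exons of Ms4a4a span 836 bases and those of Ms4a6b 4485, and how complete these gene models are was not tested.

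The make-up of the MS4A counts differed with the library. The 7 genes together took 0.0487%, 0.0407% and 0.0420% of gene counts in the controls, against 0.0843%, 0.190% and 0.156% under FID. Ms4a4c made up 8.57%, 4.94% and 9.31% of their sum in the controls, against 10.3%, 28.9% and 24.4% under FID. Counting error was small beside these steps, with a 95% Wilson interval of 9.67% to 11.1% in FID 1 and 28.3% to 29.6% in FID 2, which covers counting error only. Ms4a4d varied most among controls, from 9.29% in control 1 to 33.9% in control 3, and took 7.23% to 11.1% in FID. Ms4a6c kept the most even share, between 8.78% and 9.63% in all 6 libraries, and Ms4a6b between 10.5% and 13.3%.

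**Figure D2:**
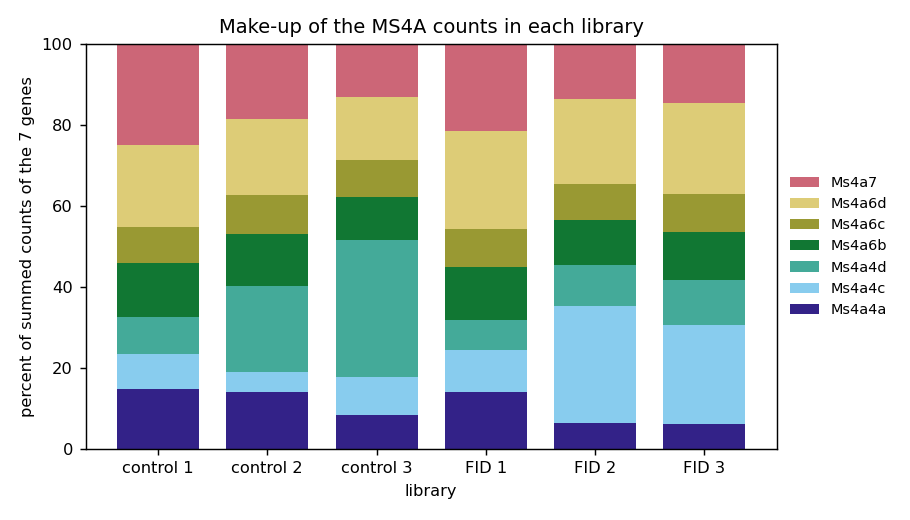
Stacked bars of the percent that each of the 7 genes took of their summed counts in each of the 6 libraries. Ms4a4c (light blue) takes 28.9% and 24.4% in FID 2 and FID 3 and 10.3% or less elsewhere, and Ms4a4d takes 33.9% in control 3.

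General macrophage genes also tended to be higher in the libraries labelled FID. Each MS4A gene was therefore set against 14 of them, Lyz2, Ctss, Laptm5, Cd68 and Csf1r among them. All 14 were tested, 14 lay above 0 in log2 fold change, 0 passed the edgeR test, with a median of 1.00. The differences ranged from 0.05 for Cd14 to 1.59 for Aif1, and Lyz2, Laptm5, Csf1r and Cd14 overlapped between the groups. By the other measures used above for the 7 MS4A genes, 11 of the 14 had an unadjusted p under 0.05, 10 separated the groups without overlap and DESeq2 called 10, all higher in FID. These shares of the macrophage list were likewise above those of all tested genes (9.81%, 13.0% and 3.60%), so the pattern is not particular to the MS4A genes. The summed level of the 14 macrophage genes was 5675, 5254 and 3367 CPM in control and 9747, 9018 and 7123 CPM in FID, with Lyz2 and Ctss the largest parts. Relative to the mean of these genes in the same library, Ms4a6d was 0.96 higher in FID on the log2 scale, with control libraries at -1.31, -1.45 and -1.07 and FID libraries at -0.80, -0.11 and -0.03. Ms4a7 was 0.48 higher, with control libraries at -1.01, -1.47 and -1.31 and FID libraries at -0.96, -0.73 and -0.65. In these 2 genes the groups did not overlap (exact two-sided permutation p 0.10 each, the smallest that 3 against 3 libraries can give, and 0.28 adjusted over the 7 genes). Such separation upward was shown by 0.194% of all tested genes. The mean of the 14 macrophage genes was itself higher in every FID library. On the log2 scale it was 7.98, 7.75 and 7.10 in control and 8.46, 8.78 and 8.46 in FID. This lowers the ratio of any gene in FID, so that share is not a chance rate.

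The other MS4A genes overlapped on this scale. Ms4a4c was 2.03 higher on average, but FID 1 (-2.01) lay within the control range of -3.33 to -1.80, below FID 2 (0.35) and FID 3 (0.09) (exact permutation p 0.20). Ms4a6b and Ms4a6c were 0.63 and 0.64 higher, and FID 1 lay within the control range for both (exact permutation p 0.20 each). For Ms4a4a the difference was 0.08, between -1.85 ± 0.09 (control mean, SD) and -1.77 ± 0.18 (FID mean, SD) (exact permutation p 0.60). Ms4a4d differed by -0.36, with means of -1.21 ± 1.23 and -1.57 ± 0.83 (exact permutation p 0.90). Adjusted over the 7 genes, these p were 0.28, 0.28, 0.28, 0.70 and 0.90.

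**Figure D3:**
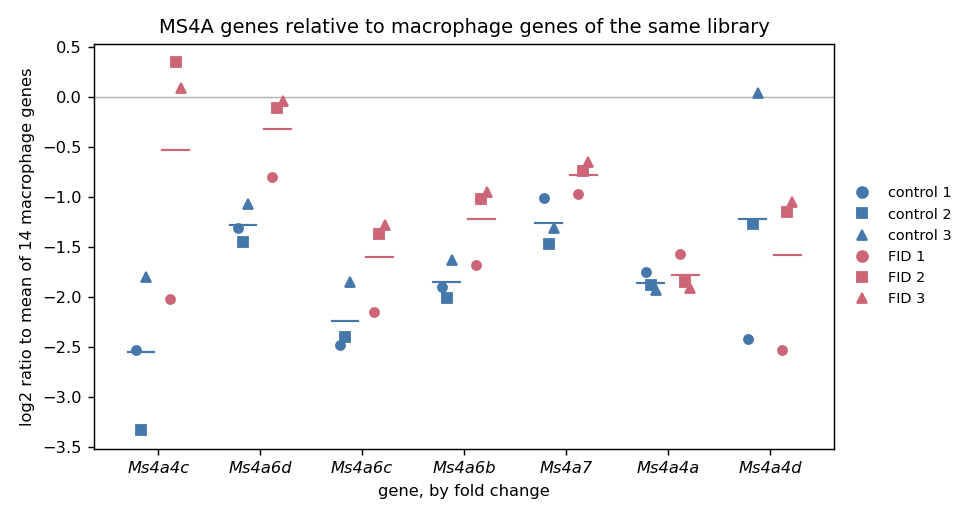
Log2 ratio of each MS4A gene to the mean of 14 macrophage genes in the same library, with points for libraries and lines for group means. Ms4a6d and Ms4a7 separate the groups, whereas Ms4a4a sits near -1.85 in control and -1.77 in FID.

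Lists of myeloid genes give the setting of these values in each library. Of 10 monocyte genes, 8 lay above 0 in log2 fold change, 0 passed the edgeR test, with a median of 1.49. An unadjusted p under 0.05 was reached by 6 of them, 4 did not overlap between the groups and DESeq2 called 5, all higher in FID. Over all tested genes these shares were 9.81%, 13.0% and 3.60%. Ly6c2, a defining gene of inflammatory monocytes with a close neighbouring copy, measured 33.8, 9.63 and 31.0 CPM across the control libraries, against 54.2, 713 and 552 CPM across the FID libraries. Plac8, also of monocytes, measured 78.3, 41.3 and 84.8 CPM across the control libraries, against 81.9, 764 and 460 CPM across the FID libraries. Both were high in FID 2 and FID 3 and not in FID 1, as Ms4a4c was, while Vcan, of monocytes and stroma, differed by -0.27 on the log2 scale (SE 0.22).

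The interferon list had 19 of 19 genes above 0 and 0 past the edgeR test, with a median of 2.27, or 1.70 without FID 2 and 2.76 without FID 1. Of the 19, 18 had an unadjusted p under 0.05, 4 did not overlap between the groups and DESeq2 called 9, all higher in FID. The shares over all tested genes were 9.81%, 13.0% and 3.60%. The mean log2 level of the interferon list was 6.26, 4.80 and 5.85 in the controls, 6.10 in FID 1 and 8.70 and 8.02 in FID 2 and FID 3. The part of monocyte and interferon transcripts in the differences of the MS4A genes was not tested. Irf7, a transcription factor of the interferon response, measured 186, 43.2 and 131 CPM across the control libraries, against 181, 1561 and 1050 CPM across the FID libraries. With Irf7, the 3 most abundant genes of the list were Ly6e and Bst2. Their log2 fold changes were 1.23 (SE 0.46) and 1.97 (SE 0.64), against 2.96 (SE 0.81) for Irf7. All 3 overlapped between the groups, with DESeq2 adjusted p of 0.0711 for Ly6e, 0.125 for Bst2 and 0.0387 for Irf7. Genes of resident macrophages were mixed, with 6 of 10 above 0, 0 past the edgeR test and a median of 0.22. DESeq2 called 3 higher and 1 lower, and the same numbers did not overlap between the groups. Over all tested genes, DESeq2 called 3.60% higher and 13.0% were higher without overlap. The 3 most abundant were Mrc1, the mannose receptor, at 0.04 (SE 0.33), Stab1, a scavenger receptor, at -0.15 (SE 0.32) and Gas6, a ligand of uptake receptors, at -0.56 (SE 0.13) on the log2 fold change scale. Siglec1, a sialic acid receptor that interferon also induces, Folr2, a folate receptor, and Maf, a transcription factor of macrophages, measured 1.90, 1.26 and 0.64 on that scale, with DESeq2 adjusted p of 0.00123, 7.28e-04 and 0.0165, and were picked after their values were seen. That median was 0.04 without FID 1 and 0.56 without control 2.

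**Figure D4:**
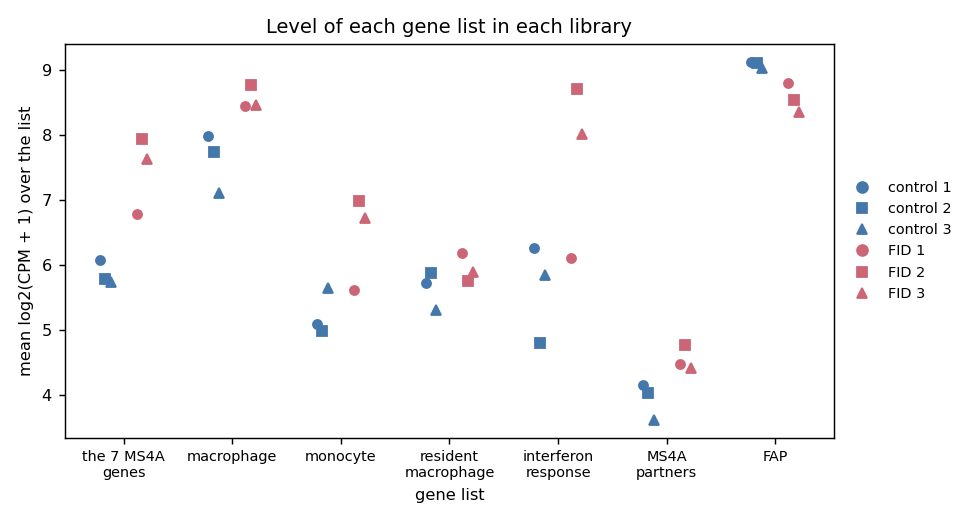
Mean log2(CPM + 1) over the members of 7 gene lists in each library, with blue points for control and red points for FID. The 7 MS4A genes and the monocyte and interferon lists are highest in FID 2 and FID 3, whereas the FAP list is lower in every FID library than in every control library.

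Among other cells, markers of lymphoid, mast and dendritic cells and of neutrophils were low. For T and NK cells, which use Ms4a4b and Ms4a6b, the summed level of 8 markers was 2.83 to 7.32 CPM in control and 3.15 to 4.64 CPM in FID, and Cd3e had no count in any library. B cell markers summed to 7.71 to 16.4 CPM in control and 17.1 to 32.4 CPM in FID, mostly Ighm. The 7 mast cell markers summed to 9.86 to 17.4 CPM in control and 9.18 to 18.4 CPM in FID, but their members differed in direction. Kit, the stem cell factor receptor, which other cells also make, averaged 12.0 CPM in control and 6.08 CPM in FID. The mast cell proteases Mcpt4, Cma1 and Tpsb2 were too low to test, averaging 0.198, 0.165 and 0.199 CPM in control and 1.92, 1.52 and 1.42 CPM in FID, each without overlap and highest in FID 2. Such upward separation was shown by 13.0% of tested genes. These counts are small, with 0, 2 and 3 for Cma1 in control and 5, 32 and 6 in FID. Cpa3, the most abundant of these proteases, was also too low to test and overlapped between the groups, averaging 0.592 CPM in control and 1.71 CPM in FID. Dendritic cell markers summed to 17.6 to 64.9 and 29.6 to 40.6 CPM, and neutrophil markers to 58.2 to 95.1 and 84.7 to 106 CPM. FAP markers were abundant, at 23952 to 26388 CPM summed in control and 12592 to 17310 CPM in FID, mostly Col1a1. They were lower in FID in 7 of 7, with 0 past the edgeR test and a median log2 fold change of -0.46. Of all 12881 tested genes, 6730 lay below 0. DESeq2 called 1 of the 7, Col1a1 (adjusted p 2.91e-04), which was also the 1 gene lower without overlap. Over all genes, DESeq2 called 287 of 13140 lower, and 1582 of the 12881 were lower without overlap. Endothelial markers summed to 838 to 2421 CPM in control and 764 to 1048 CPM in FID. They were lower in FID in 4 of 4, with a median of -0.67 that was -0.19 without control 1. The part of these cells in the MS4A values was not tested.

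The rest of the MS4A family was little expressed, apart from the related Tmem176a and Tmem176b. Of 14 such genes 5 had no count in any library, 5 were tested and 0 passed in edgeR, with a median log2 fold change of 0.74. Of the 5 tested, 3 had an unadjusted p under 0.05 and 2 did not overlap between the groups, all higher in FID. DESeq2 called 1, Ms4a4b, higher in FID (adjusted p 0.0013). Over all tested genes these shares were 9.81%, 13.0% and 3.60%. Ms4a4b, of T cells, had 3, 4 and 9 counts in the controls, against 15, 80 and 60 under FID (log2 fold change 3.10, SE 0.67, edgeR adjusted p 0.136), in a pattern like that of Ms4a4c, with which it shares sequence, so some of its reads are uncertain. Ms4a14, next to Ms4a7, measured 0.74 on that scale (SE 0.26, edgeR adjusted p 0.204), and Ms4a8a 1.36 (SE 0.54, edgeR adjusted p 0.236) on 9 to 49 counts a library. Tmem176b and Tmem176a, on chromosome 6, had 0.02 (SE 0.18) and -0.10 (SE 0.19). Ms4a1, the B cell antigen CD20, had 5 counts in FID 2 and 0 elsewhere, Ms4a2, a chain of the mast cell IgE receptor, had 1 count in all, and Ms4a3, of myeloid progenitors, had 0.

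Around the cluster, 24 coding genes lie between its ends or within 200 kb of them, 17 of them outside the 7 described. Of these 17, 8 had no count and 4 could be tested, none of which passed. Mrpl16, a mitochondrial ribosomal protein gene, measured 0.01 as log2 fold change (edgeR adjusted p 0.971) and its neighbour Stx3, a syntaxin, 0.48 (edgeR adjusted p 0.446). Gm8369, which lies between Ms4a6c and Ms4a6b, was too low to test, with 0 to 2 counts in control and 5, 13 and 17 in FID.

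**Figure D5:**
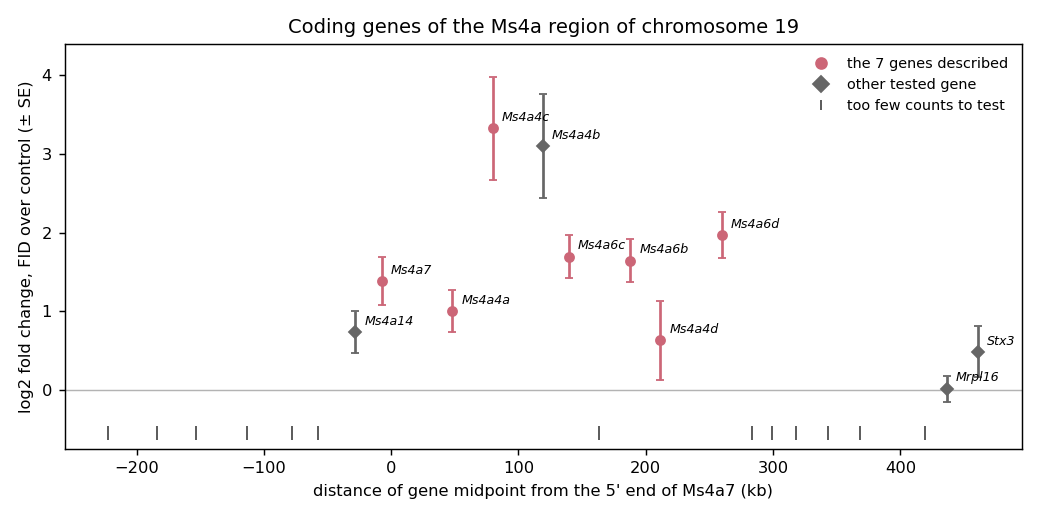
Log2 fold change of FID over control, with SE bars, against the distance of each coding gene's midpoint from the 5′ end of Ms4a7 in kb, with ticks for genes with too few counts to test. The 7 MS4A genes (circles) lie between 0.63 and 3.33, while Mrpl16 lies at 0.01.

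Genes known as partners of MS4A proteins or of their pathways were read as a list of 10. Of these 8 were tested, 7 lay above 0 in log2 fold change, 0 passed the test, with a median of 0.95. Tyrobp, the adaptor of many myeloid receptors, measured 111 ± 29.4 against 224 ± 24.9 CPM (log2 fold change 1.01, SE 0.22, edgeR adjusted p 0.136). Trem2, a lipid receptor whose shed form is linked to MS4A genes in humans, had 0.89 (SE 0.29, edgeR adjusted p 0.183), and Syk, the kinase below dectin-1, 0.37 (SE 0.25, edgeR adjusted p 0.451). Clec7a, which encodes dectin-1, measured 27.1, 13.1 and 9.18 CPM across the control libraries, against 34.5, 32.6 and 19.3 CPM across the FID libraries, and Nlrp3, the inflammasome sensor, was the 1 tested gene below 0, at -0.27 on the log2 scale (SE 0.33). Of its inflammasome partners, the adaptor Pycard measured 1.08 and the protease Casp1 1.37, both without overlap (DESeq2 adjusted p 0.0249 and 0.00877). DESeq2 called 3 of the 8, and 5 did not overlap, all higher in FID, against 3.60% and 13.0% of all tested genes. Vsig4 had no more than 1 count in any library. Clec7a, Nlrp3, Pycard, Casp1 and Vsig4 were picked after their values were seen.

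The genes most like each MS4A gene over the 6 libraries were found by Pearson's r of log2(CPM + 1) among all tested genes. These are descriptions, since the 6 points share their groups and all 12881 tested genes were ranked. Ms4a4a was most like Fcgr3, an Fc receptor (r = 0.997), Ctsb, a lysosomal protease (0.995), and Gpnmb, a lysosomal membrane protein of macrophages (0.995). For Ms4a7 these were Ikzf1, a lymphoid and myeloid transcription factor (0.999), Trpv2, a cation channel, and Tlr7, a sensor of single-stranded RNA (0.998 each). Ms4a6b and Ms4a6d had each other among their nearest genes (r = 0.999), along with Pstpip2, an adaptor of myeloid cells. Rab7 was also among those of Ms4a6b (r = 0.9993) and Cd48 among those of Ms4a6d (r = 0.9985). Ms4a6c had Slc2a6, Tmem128 and Coro1a. Ms4a4c had Exoc2, Slu7 and B430306N03Rik. Ms4a4d stood apart, with Aldh1a1, a retinaldehyde dehydrogenase, first (r = 0.991), followed by Msl3l2 and Primpol (r = 0.985 each). The r of Ms4a4d was -0.001 to Ms4a4a, 0.22 to Ms4a7, 0.47 to Ms4a6d, 0.48 to Ms4a6b, 0.58 to Ms4a6c and 0.64 to Ms4a4c.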

How the data were processed

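RNA was sequenced in 3 control and 3 FID libraries. The authors deposited unnormalised read counts for each Ensembl gene. Bowtie2 2.5.4, HTSeq, STAR, cutadapt, DESeq2 and SAMtools are named in the submitters' processing notes with no role, as is mm10, and the annotation release is not given in the sources used here. Entries that name no gene made up 9.60% to 10.9% of each file and were left out, and 42462 of 43432 genes (97.8%) were matched to symbols. Coordinates and exons are from GENCODE M21 (GRCm38, the assembly of mm10).

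Genes were filtered with filterByExpr (minimum count 10, minimum total 15) and tested with the two-sided quasi-likelihood test of edgeR 4.0.16 with TMM factors, group as the only term and Benjamini-Hochberg adjustment over all tested genes. SE are the absolute log2 fold change over the square root of F. Alternatives used DESeq2 1.42.0, limma 3.58.1 (voom), other scaling, no filter, the replicate number as a block, and each library left out. Ratios to macrophage genes used a pseudocount of 1 CPM. The floor for a gene with no count was 3 counts, or 0.297 to 0.577 CPM, for counting error only. No library was a copy of another in its group (chi-square over degrees of freedom 14.1 to 46.0, genes with 20 or more counts). The pipeline was tested on simulated data.

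The 7 genes and the gene lists were chosen with earlier results of these data known. Named by rule are the 7 genes, other MS4A genes with at least 10 counts, genes around the cluster and the 3 genes most like each of the 7. So are the 3 most abundant tested genes of the macrophage, monocyte, resident macrophage, interferon and partner lists. For the other lists such genes are not all named. Others were chosen after their values were seen. Coding sequences were compared in place of proteins, which were not used here.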

Additional observations from a re-analysis of the deposited data

How the results depend on the processing

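Directions of all 7 fold changes were the same under all 12 alternatives. The number of the 7 genes past the adjusted threshold, 0 in edgeR, was 6 with DESeq2 and 6 with no filter on low counts, and ranged from 0 to 4 with 1 library left out, the 4 being without FID 1. Over all genes the number was 760 with DESeq2 (473 higher), 269 with no filter (218 higher) and 0 to 359 with 1 library left out, with 359 (283 higher) without FID 1 and 3 without control 1. With DESeq2 the log2 fold changes of the 6 genes called were 1.00 for Ms4a4a, 3.33 for Ms4a4c, 1.65 for Ms4a6b, 1.70 for Ms4a6c, 1.97 for Ms4a6d and 1.39 for Ms4a7. With no filter they were 1.03, 3.35, 1.67, 1.72, 2.00 and 1.42 in the same order, at edgeR adjusted p of 0.00775 to 0.0499. With 1 library left out the log2 fold change ranged from 2.77 to 3.80 for Ms4a4c, from 1.43 to 1.90 for Ms4a6b, from 1.47 to 1.97 for Ms4a6c and from 1.75 to 2.23 for Ms4a6d. It ranged from 1.16 to 1.76 for Ms4a7, from 0.77 to 1.26 for Ms4a4a and from 0.32 to 1.09 for Ms4a4d. The cause of the changes in calls was not tested.

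Relative to macrophage genes, 2 differences between the groups changed sign. For Ms4a4a the difference relative to macrophage genes was -0.022 without FID 1, and it ranged from -0.022 to 0.15 with 1 library left out. Against Lyz2 alone in place of the 14 macrophage genes, the difference was 0.56 for Ms4a4a (0.08 with the 14), 0.96 for Ms4a7 (0.48), 1.11 for Ms4a6b (0.63), 1.13 for Ms4a6c (0.64) and 1.44 for Ms4a6d (0.96). Ms4a4d, at -0.36 with all libraries, was 0.12 against Lyz2 alone and ranged from -0.96 to 0.27 with 1 library left out, being 0.27 without control 3 and 0.12 without FID 1.

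The titles number the libraries 1 to 3 in both groups, but nothing says that a number links a control and an FID library. Deviations from the group means correlated at -0.01, -0.32 and 0.34 for numbers 1, 2 and 3, so not every library was most like its own number. With the replicate number as a block, edgeR called 0 of the 7 genes and 0 of all genes, and the log2 fold changes were 1.05 for Ms4a4a, 3.06 for Ms4a4c, 0.60 for Ms4a4d, 1.62 for Ms4a6b, 1.64 for Ms4a6c, 1.94 for Ms4a6d and 1.46 for Ms4a7.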
